A study of Caenorhabditis elegans with 2 samples.

Results

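The E2F, Rb and G1/S genes described here are 9 protein-coding genes of Caenorhabditis elegans, chosen by name from the 19973 protein-coding genes on its nuclear chromosomes. They are the E2F-like genes efl-1 and efl-2, their DP partner dpl-1, the Rb family gene lin-35, the PCNA gene pcn-1, the cyclin genes cyd-1 and cye-1, the kinase gene cdk-4 and the CDK inhibitor gene cki-1. They were chosen with earlier results of these data known. Regions bound by NHR-11, a nuclear hormone receptor, were sought by chromatin immunoprecipitation followed by sequencing (ChIP-seq) in whole L1 larvae, the first larval stage. The animals were of strain OP305, genotype unc-119(ed3) III; wgIs305, of mixed sex and of unknown age, and NHR-11 carried an eGFP tag from the integrated transgene. The 2 biological replicates form 1 group, in which every library carries both the transgene and the unc-119 allele, and no untagged strain or other stage was analysed here. Whole animals pool all tissues, so a peak cannot be given to a cell type, and a tagged transgene need not act as the chromosomal gene does.

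E2F and DP proteins bind DNA as heterodimers near genes of DNA replication and cell division. With an Rb family protein and the MuvB proteins they form the DREAM complex, which holds such genes down in cells that are not dividing. Cyclin D with CDK-4, and then cyclin E with its kinase, phosphorylate Rb family proteins and carry cells from G1 into S phase, and CKI-1, a p27-type inhibitor, opposes these kinases. In newly hatched L1 larvae the blast cells wait in G1 until the animal feeds, and both cki-1 and lin-35 are known for roles in keeping larval cells out of S phase.

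The peaks are in 4 lists on the ce11 build, each with a summit and a signal value from the authors, on a scale that no source used here states. There are 28727 pooled candidates, 30000 candidates in each replicate, and 1141 peaks that passed the authors' IDR step, a filter on agreement between replicates; the last are termed called peaks. The lowest signal of a called peak was 49.9 and the median 74.1, against a median of 18.4 for all pooled candidates. All 1141 called peaks are in the pooled list, and no uncalled candidate there had a higher signal than a called peak. The called set is thus the 1141 candidates of highest pooled signal, and a called peak need not be strong in each replicate. A peak was given to a gene when its summit lay in the gene body or within 2 kb upstream of the annotated 5' end. Ranks run from 1, the highest signal in a list. The lists hold no read counts, so depth is unknown, and with 1 group no test between groups was possible.

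Called NHR-11 peaks lay at efl-1, lin-35, pcn-1 and cye-1, and those of efl-1, lin-35 and pcn-1 were 198 to 266 bp before the gene's 5' end. The cyclin D gene cyd-1, its kinase gene cdk-4, efl-2 and dpl-1 had candidates of low signal only. The inhibitor gene cki-1 had no candidate summit in its window in any list. The regions around the 2 strongest peaks, at pcn-1 and efl-1, are shown here for 2 reasons. Each summit lies before its gene and nearer to that gene's 5' end than to any other, and the regions hold letter runs of the kind E2F proteins bind. They run 100 bp to either side of the called summit on the strand of the gene, at chrIV:4049614-4049814 for pcn-1 and chrV:16965773-16965973 for efl-1, both on the minus strand. An intron candidate of cyd-1, chrII:12984379-12984479 on the plus strand, and one of cdk-4, chrX:13517496-13517596 on the minus strand, are shown beside them at 50 bp to either side as regions that were not called. The regions differ in width and were picked, so they do not compare called with uncalled peaks. Both E2F-type words of pcn-1 lie beyond 50 bp from its summit. The uncalled candidate upstream of cye-1, which holds such words within 50 bp, is not shown. Sequences are from RefSeq, assembly WBcel235, and capitals mark every searched word, on either strand.
pcn-1: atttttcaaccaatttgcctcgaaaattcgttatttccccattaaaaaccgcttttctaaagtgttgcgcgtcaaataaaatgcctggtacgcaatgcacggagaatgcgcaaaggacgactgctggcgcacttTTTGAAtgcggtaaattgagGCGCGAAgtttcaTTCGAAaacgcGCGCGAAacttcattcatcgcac
efl-1: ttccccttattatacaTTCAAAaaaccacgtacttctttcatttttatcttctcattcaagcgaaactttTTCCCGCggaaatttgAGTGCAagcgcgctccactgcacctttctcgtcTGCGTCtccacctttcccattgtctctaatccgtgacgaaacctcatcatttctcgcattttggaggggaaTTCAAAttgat
cyd-1: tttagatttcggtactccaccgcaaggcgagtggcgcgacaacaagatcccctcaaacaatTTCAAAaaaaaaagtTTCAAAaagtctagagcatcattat
cdk-4: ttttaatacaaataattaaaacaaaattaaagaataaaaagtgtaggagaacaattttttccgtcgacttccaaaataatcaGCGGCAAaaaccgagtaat

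In the pcn-1 region the capitals are TTCGCGC, an E2F-type word read on the opposite strand as GCGCGAA, which occurs at 57 and 81 bp from the summit, and the words TTTGAA and TTCGAA at 37 and 70 bp. In the efl-1 region they are the E2F-type word TTCCCGC 27 bp from the summit, AGTGCA at 11 bp, GACGCA on the opposite strand at 22 bp, and TTTGAA on the opposite strand at 81 and 93 bp. The cyd-1 intron region holds TTTGAA on the opposite strand at 13 and 28 bp, and the cdk-4 intron region holds the E2F-type word TTGCCGC on the opposite strand at 35 bp. The G and C content of the 101 bp around the summit was 46.5% at pcn-1 and 50.5% at efl-1, near the median of 45.5% of all called peaks. It was 39.6% at the cyd-1 intron candidate and 26.7% at the cdk-4 intron candidate, and the median of the other pooled candidates was 32.7%.

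A called summit was found for 4 of the 9 genes, against 6.70% of all protein-coding genes (1338 of 19973). Because the 9 were chosen with earlier results of these data known, this and the following shares are descriptions and test nothing. A pooled candidate was found for 8 of the 9, against 65.6% of genes (13102). Within a narrower promoter window, from 1 kb upstream to 200 bp downstream of any transcript 5' end, 3 of the 9 had a called summit, against 4.47% of genes (893), and cye-1 was the gene that dropped out. When the called set was replaced by the 1141 strongest candidates of replicate 1 alone, 4 of 9 were called, against 6.73% of genes. With replicate 2 alone it was again 4 of 9, against 6.51%. The same 4 genes made up the count in each replicate. The windows searched were longer than those of most genes, with a median of 5599 bp against 4027 bp for all genes, and the called share over all genes was 5.82% in the shortest of 4 equal classes of window length and 9.84% in the longest. In that longest class are efl-1, lin-35, efl-2 and cyd-1, and efl-1 and lin-35 of these were called.

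**Figure D1:**
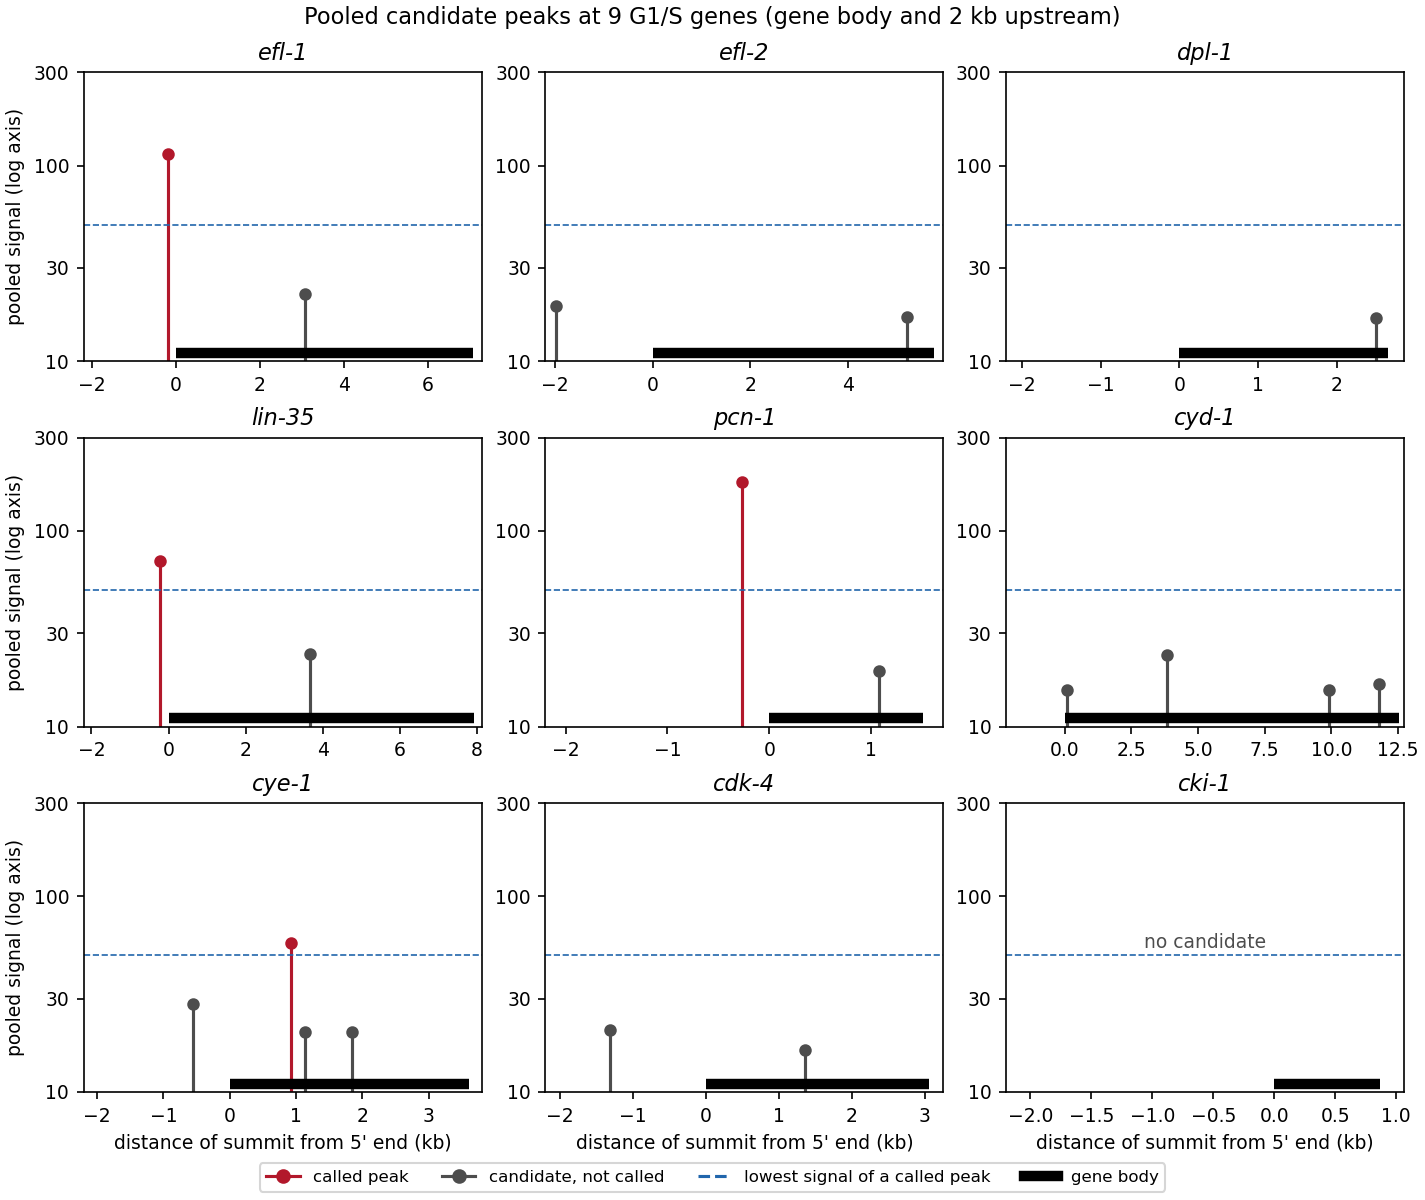
Pooled candidate peaks of each of the 9 genes, with the distance of the summit from the annotated 5' end in kb on the x axis and the authors' pooled signal on a log y axis; the black bar is the gene body and the dashed line the lowest called signal, 49.9. The called peaks of efl-1, lin-35 and pcn-1 stand just before the gene, that of cye-1 stands inside it, and cki-1 has no candidate summit.

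EFL-1, the E2F-like protein of the worm's DREAM complex, is encoded on chromosome V (WBGene00001161, 16958590 to 16965675, minus strand). Its called peak spanned 16965688 to 16966057 with a summit 198 bp upstream of the 5' end. The signal was 114 in the pooled list, rank 260 of 28727, with 62.6 in replicate 1, rank 244, and 53.4 in replicate 2, rank 296. The 2 replicates placed it at nearly the same rank, with summits 32 bp apart. Of all called peaks, 22.8% had a signal at least as high. The nearest 5' end of another gene was that of fbxa-90, an F-box gene on the other strand, 941 bp from the summit. The summit lies upstream of fbxa-90 too, so the 2 kb rule gives the peak to both genes. The next called summit on the chromosome was 564139 bp away, against a median of 19665 bp over all called peaks. A candidate in an efl-1 intron, 3062 bp inside the gene, had a pooled signal of 21.9, and 9.62 in replicate 2, and overlapped no candidate of replicate 1.

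EFL-2, the second E2F-like protein, and DPL-1, the DP partner, gave no called peak. The gene efl-2 (WBGene00001162) lies on chromosome II at 13406140 to 13411895, plus strand. Its pooled candidates were 1986 bp upstream, inside the neighbouring gene pinn-4, with a signal of 19.2, and in its 3' UTR, with 16.8. Both had a partner in replicate 2 only, of 11.9 and 12.3. The gene dpl-1 (WBGene00001061) lies on chromosome II at 9169910 to 9172565, plus strand, and had a single pooled candidate of 16.7 in its 3' UTR, rank 18362. That summit also lies inside the gene T23G7.2 on the other strand, 535 bp from its 5' end. In replicate 1 the one dpl-1 candidate was 928 bp upstream with a signal of 9.86, and in replicate 2 it was in the 3' UTR with 7.29, so the replicates did not place it in the same spot. Of the 3 genes for E2F-DP heterodimers, efl-1 was thus the one called.

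LIN-35 is the worm's Rb family protein. Its gene (WBGene00003020) lies on chromosome I at 5807709 to 5815637, plus strand, and the called peak spanned 5807301 to 5807670. The summit was 223 bp upstream of lin-35 and 195 bp from the 5' end of vps-51, a vesicle tethering gene that runs the other way from a start 417 bp off. The peak thus lies between divergent genes and is nearer to vps-51. The signal was 70.1 pooled, rank 629, with 33.7 in replicate 1, rank 798, and 38.4 in replicate 2, rank 548. The summits of the replicates were 1 bp apart, and 55.1% of called peaks had a signal at least as high. Assigning each peak only to the gene with the nearest 5' end takes lin-35 out and leaves efl-1, pcn-1 and cye-1 called, against 4.22% of all genes under that rule. A candidate in a lin-35 intron, 3672 bp inside the gene, had a pooled signal of 23.4 and 19.8 in replicate 1, and overlapped no candidate of replicate 2.

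PCN-1 is PCNA, the sliding clamp that holds DNA polymerase on the template, and its gene is a textbook E2F target in other animals. It lies on chromosome IV (WBGene00003955, 4047937 to 4049448, minus strand). Its peak, 4049639 to 4049804, was the strongest of the 9 genes and was 166 bp wide, where 82.5% of called peaks had the fixed width of 370 bp. The 187 narrower called peaks had a median signal of 175, against 67.7 for those at the fixed width. The pcn-1 signal was 178 pooled, rank 104, with 106 in replicate 1, rank 75, and 67.7 in replicate 2, rank 181. It was thus 1.57 times as high in replicate 1 as in replicate 2, above the upper quartile of 1.36 over all called peaks, and the summits lay 50 bp apart, against a median of 25 bp. Of all called peaks, 9.11% had a signal at least as high, and pcn-1 ranked 125 among genes with a called peak. The 5' end of another gene nearest to the summit, that of the hedgehog-related gene wrt-5, was 1925 bp away. A second candidate, in a coding exon 1079 bp inside pcn-1, had signals of 19.2 pooled, 11.6 in replicate 1 and 8.70 in replicate 2.

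**Figure D2:**
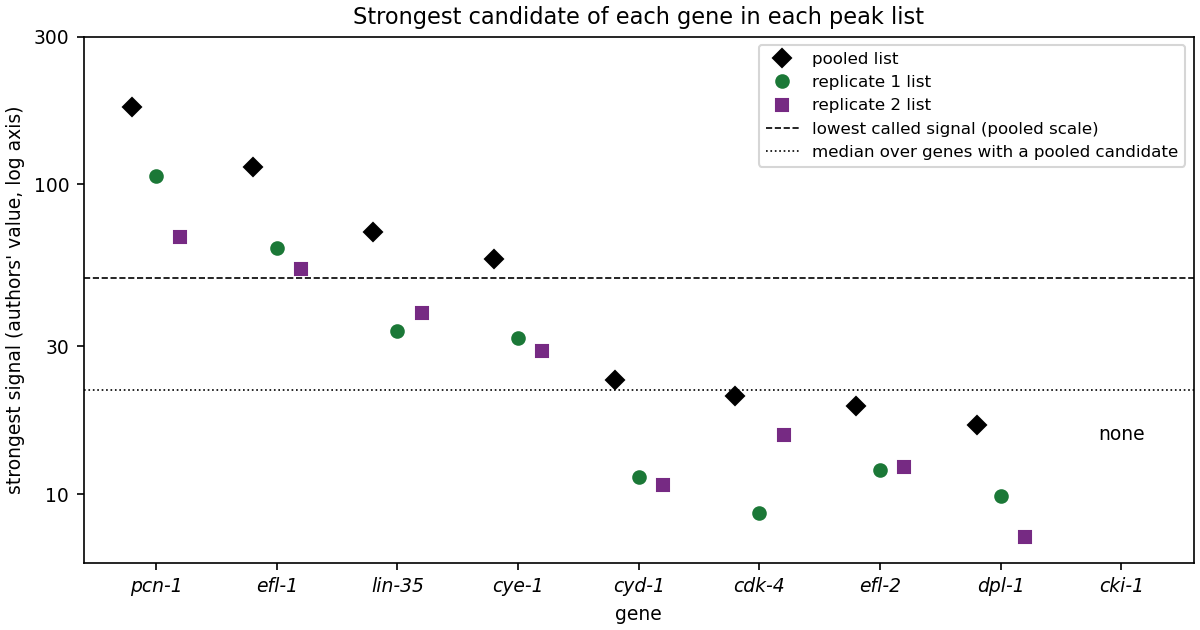
The highest signal of any candidate of each gene in the pooled list (diamonds), in replicate 1 (circles) and in replicate 2 (squares), as the authors' values on a log y axis; for the uncalled genes the 3 marks need not come from the same spot. The 4 called genes stand above the lowest called signal of 49.9 in the pooled list, cyd-1, cdk-4, efl-2 and dpl-1 lie between 16.7 and 23.3, and cki-1 has no mark.

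CYD-1 is the D-type cyclin and CDK-4 its kinase, the pair that starts the G1 to S step. The gene cyd-1 (WBGene00000870, chromosome II, 12980591 to 12993117, plus strand) has the longest search window of the 9, 14527 bp, and held 4 pooled candidates. Their signals were 15.4 in the 5' UTR 92 bp from the 5' end, 23.3 in an intron at 3838 bp, 15.4 in an intron at 9923 bp and 16.5 in a coding exon at 11799 bp. None of the 4 overlapped a candidate in both replicates, and the one in the 5' UTR overlapped none in either. For cdk-4 (WBGene00000406, chromosome X, 13515856 to 13518911, minus strand) there were 2 pooled candidates. One, of 20.8, lay 1314 bp upstream inside the gene F18H3.1, and the other, of 16.3, lay in an intron. Replicate 2 held a partner of each, with 15.5 and 8.36, and replicate 1 held neither. Near the cdk-4 start, replicate 2 also held a candidate 42 bp upstream, of 9.10, rank 18883. Replicate 1 held one 296 bp inside the gene, of 8.71, rank 28649. Neither has a counterpart in the pooled list. With 5 kb of upstream sequence in place of 2 kb, cdk-4 gained a candidate 3053 bp upstream with a signal of 36.7, rank 2119, which was not called either.

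CYE-1 is cyclin E, which drives entry into S phase. Its gene (WBGene00000871, chromosome I, 6780799 to 6784397, plus strand) was the one with a called peak inside the gene, in an intron 918 bp from the 5' end, at 6781532 to 6781901. The signal was 57.5 pooled, rank 887, with 31.9 in replicate 1, rank 890, and 29.0 in replicate 2, rank 921. The ranks of the replicates were close, and the summits were 63 bp apart. It was the weakest of the 4 called peaks, and 77.7% of called peaks had a signal at least as high. Its −log10 q was 2.77, below the list's ceiling of 3.16 that the other 3 reached together with most called peaks. Before the gene, the pooled list held an uncalled candidate 555 bp upstream, of 28.1 pooled, 12.8 in replicate 1 and 19.0 in replicate 2. Replicate 1 also held one 1637 bp upstream, of 15.4, which has no counterpart in the pooled list. The pooled candidate 555 bp upstream holds the E2F-type words TTCGCGC and TTGCCGC within 50 bp of its summit. It lies 93 bp from the 5' end of pqn-21, which runs the other way. Further candidates lay 1133 and 1845 bp inside cye-1, with 20.3 and 20.4. The replicate 1 candidate that overlaps the first of these is the one at the called peak.

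CKI-1 is the inhibitor that holds cells in G1. Its gene (WBGene00000516, chromosome II, 7811240 to 7812105, plus strand) is short, at 866 bp, and has the smallest window of the 9, 2866 bp. No list held a summit in that window. The nearest pooled summit upstream lay 2592 bp before the 5' end with a signal of 13.7, rank 28278, near the bottom of the list. The nearest one downstream lay 1008 bp past the 5' end, beyond the gene, with 18.5. That peak reaches into the end of cki-1, so that by overlap of the peak interval, in place of the summit, cki-1 has an uncalled candidate. The next gene upstream, glr-4, is 16917 bp away, so the window covers only part of the sequence between the genes. Over all genes, 50.2% of those in the shortest class of windows had a pooled candidate.

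**Figure D3:**
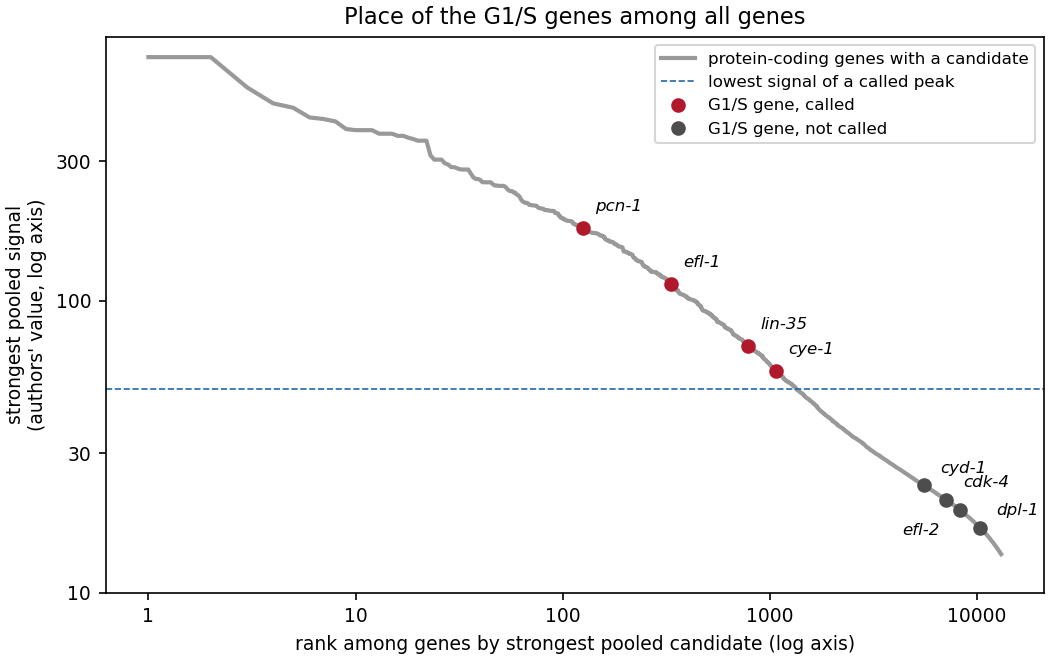
Protein-coding genes ordered by their strongest pooled candidate, with rank on the x axis and the authors' signal on the y axis, both log axes; dots are the 8 genes of the set with a candidate, and the dashed line is the lowest called signal. The 4 called genes lie between pcn-1 at rank 125 and cye-1 at rank 1072, and the other 4 lie far down the curve.

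The strongest pooled signals of the 8 genes with a candidate had a median of 40.4 and ran from 16.7 at dpl-1 to 178 at pcn-1. The median over the 13102 genes with a candidate was 21.6, and 5 of the 8 exceeded it: pcn-1, efl-1, lin-35, cye-1 and cyd-1. No gene of the set had its strongest signal between 23.3 and 57.5 with 2 kb of upstream sequence, while with 5 kb cdk-4 lay between them, at 36.7. In order of pooled signal the called genes were pcn-1, efl-1, lin-35 and cye-1. Replicate 1 and replicate 2 both kept pcn-1 first and efl-1 second. They also both kept lin-35 above cye-1, by 33.7 to 31.9 in replicate 1 and by 38.4 to 29.0 in replicate 2. With 2 replicates per gene, the spread of these values is not well known, and the first of those gaps is smaller than the gap between replicates at lin-35. The pooled list was made from both replicates, so its order is not independent of theirs.

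**Figure D4:**
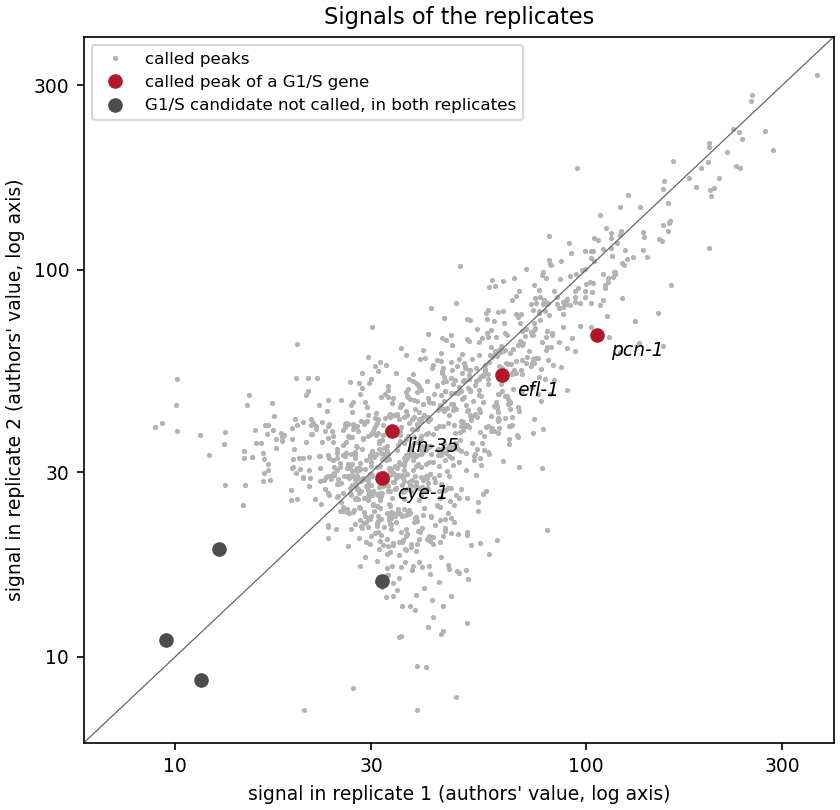
Signal in replicate 2 against signal in replicate 1 for called peaks (small dots), for the called peaks of efl-1, lin-35, pcn-1 and cye-1 (large red dots) and for the 4 uncalled candidates of the set found in both replicates (large grey dots), on log axes with the line of equal values. The called peak of pcn-1 lies below the line, at 106 in replicate 1 and 67.7 in replicate 2, and the other 3 lie near it.

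All 4 called peaks of the set overlapped a candidate in both replicates, as did 99.6% of all called peaks. The ratio of replicate 1 to replicate 2 was 1.57 at pcn-1, 1.17 at efl-1, 0.877 at lin-35 and 1.102 at cye-1. The median over all called peaks was 1.08, with quartiles of 0.855 and 1.36. The 15 uncalled pooled candidates of the set ran from 15.4 to 28.1, with a median of 19.2 against 18.1 for all uncalled candidates. Of these 15, 4 overlapped a candidate in both replicates, 2 in replicate 1 only, 8 in replicate 2 only and 1 in neither. The share found in both was 26.7%, against 36.7% of all uncalled candidates. By signal and by presence in the replicates the uncalled candidates thus lay near the bulk of the candidate list, and their highest −log10 q was 0.51.

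Words of DNA letters were searched on both strands within 50 bp of each summit. The E2F-type words were TTCCCGC, which efl-1 has, TTCGCGC, which pcn-1 has, and the related forms TTGGCGC as well as TTGCCGC. One of them stood within 50 bp at 1 of the 4 called summits, that of efl-1, against 8.76% of all called peaks and 3.27% of other pooled candidates. The median G and C content was 45.5% at called peaks and 32.7% at the others. No word share given here or below was adjusted for that difference, and its part in them was not tested. Within 100 bp the count was 2 of 4, with pcn-1 added, against 14.5% and 6.41%. When summits were taken from replicate 1 alone, the gene with a word within 50 bp was pcn-1 and no longer efl-1; the summits of the replicates were 50 bp apart at pcn-1 and 32 bp at efl-1. Among the 15 uncalled candidates, 2 held an E2F-type word, the upstream one of cye-1 and the intron one of cdk-4. Before the genes, within 500 bp of the 5' end, such a word occurred at efl-1, pcn-1 and cyd-1, which is 3 of 9, against 15.2% of all genes (3034). Over all genes, 9.72% of those with such a word there had a called peak, and 6.16% of those without. The promoter of cyd-1 thus held the word, 65 bp from the 5' end, without a called peak.

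The other words were shared by few of the called summits. TTTGAA and TTCGAA, forms of the CHR element that DREAM's DNA-binding subunit recognises, stood within 50 bp at 1 of the 4 called summits, that of pcn-1, and at 7 of the 15 uncalled ones. Over all peaks they were in 20.2% of called peaks and 35.7% of other candidates. GACGCA, which is in 19.6% of called peaks and 2.79% of other candidates, stood at 2 of the 4, efl-1 and cye-1. GAGAGA is in 30.6% of called peaks and 7.43% of others, and was within 50 bp at none of the 4, but within 100 bp at lin-35 and cye-1. Among words like those that nuclear receptors bind, AGTGCA stood at efl-1, and neither AGGTCA nor AAGTCA was found at the 4 called summits. Over all peaks AGTGCA was in 6.13% of called peaks and 3.31% of others, AGGTCA in 2.45% and 2.32%, and AAGTCA in 3.07% and 4.41%. The E-box CACGTG, in 5.61% of called peaks and 1.77% of others, was at none of the 4 and at 1 uncalled candidate of cye-1. A match is only a run of letters in a window.

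Outside the set, the genes nearest to pcn-1 in signal over the 3 candidate lists were wve-1, which encodes a WAVE regulator of actin, R06C1.4 and Y105E8A.14. Nearness was the sum over the pooled list and both replicates of the difference in log10 signal, over 9979 genes. Its value was 0.0379 for wve-1 and R06C1.4, which share a peak of 177 pooled, 103 in replicate 1 and 71.3 in replicate 2. It was 0.0429 for Y105E8A.14, with 181 pooled, 114 in replicate 1 and 67.0 in replicate 2.

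Further cell cycle genes were taken from 5 lists of 107 genes, of which 15 had a called summit, or 14.02%, against 6.70% of all genes. Their windows had a median of 5003 bp, and 79 of them had a pooled candidate, with a median strongest signal of 29.5. The lists too were chosen with earlier results of these data known, so their shares are descriptions only. Of 13 genes of the DREAM complex and the related synMuv B class, 3 were called. The DNA-binding subunit gene lin-54 had 203 pooled, 122 in replicate 1 and 84.6 in replicate 2, but its summit lay 334 bp upstream of lin-54 and 59 bp from the 5' end of the ribosomal protein gene rpl-12. The gene of the histone-binding protein LIN-53 had 167, 76.8 and 88.5 in the same order, 233 bp upstream, with the start of nra-2 at 234 bp. The MuvB gene lin-9 had 160, 67.5 and 85.7, 146 bp upstream, with the next start, of unc-32, at 1338 bp. Other members of the complex were not called: dpl-1 with 16.7, and, named after their values were seen, lin-37 with 28.7 and lin-52 with 41.3 in the pooled list.

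Of 38 genes of S phase and DNA replication, 7 were called, or 18.4%. The gene of the clamp loader subunit RFC-4, which helps place PCNA on DNA, had 170 pooled, 96.4 in replicate 1 and 71.7 in replicate 2. Its summit lay 159 bp upstream, with the start of eef-1A.1 at 382 bp. The polymerase epsilon gene pole-2 had 120, 63.8 and 57.5, but at 1357 bp upstream and 157 bp from the start of snrp-3. The licensing gene cdc-6 had 102, 36.5 and 60.2, 286 bp upstream and 93 bp from the start of acin-1. The origin recognition gene orc-5 had 69.0, 39.1 and 31.5, 123 bp upstream, at a peak it shares with the cyclin B gene cyb-1. The other 3, chosen for naming after their values were seen, were pri-2 with a pooled signal of 57.5, rpa-2 with 54.0 and orc-2 with 52.4. For rpa-2 no candidate of replicate 2 overlapped the peak, and for orc-2 the replicate 2 signal was 13.2, rank 7029. The MCM helicase genes, also named after their values were seen, had no called peak: in the pooled list mcm-2, mcm-4, mcm-5 and mcm-7 lay between 17.7 at mcm-5 and 36.8 at mcm-4, and mcm-3 and mcm-6 had no candidate.

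Of 16 genes listed as other G1/S regulators, a loose list that includes gen-1, 1 was called. It was fzr-1, which encodes an activator of the anaphase-promoting complex that keeps cells in G1. Its summit, of 79.5, lay 1799 bp upstream and 713 bp from the start of sqv-8. At 6.25% this list lay near the share of all genes. Of 28 matched genes of G2/M and mitosis, 3 were called, or 10.7%. They were the CDK-1 inhibitory kinase gene wee-1.3 with 83.1, the spindle checkpoint gene mdf-2 with 74.5, and cyb-1 with the peak it shares with orc-5. The mdf-2 summit lay 40 bp upstream, with the start of nduv-3 at 145 bp. Of 12 genes of DNA damage signalling, 1 was called, or 8.33%: brc-1, the BRCA1 gene, with 76.2, 175 bp upstream. When each peak was given only to the gene with the nearest 5' end, 9 of the 15 list genes remained called, against 4.22% of all genes under that rule (842): lin-9, lin-53, orc-5, pri-2, rfc-4, rpa-2, wee-1.3, mdf-2 and brc-1.

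**Figure D5:**
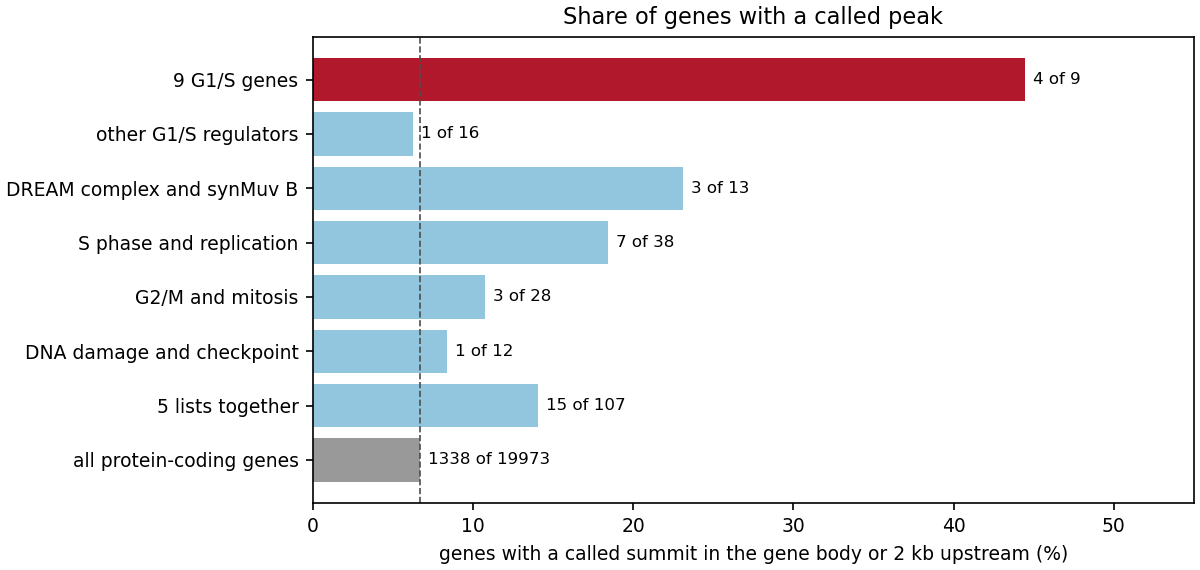
Share of genes with a called summit in the gene body or 2 kb upstream, in percent, for the 9 G1/S genes, 5 lists of other cell cycle genes, the lists together and all protein-coding genes; the dashed line marks the share of all genes, 6.70%. The 9 genes have 4 called, and the other lists run from 1 of 16 to 3 of 13.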

How the data were processed

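ChIP-seq peaks of eGFP-tagged NHR-11 came as narrowPeak lists on ce11: pooled, 1 per replicate, and IDR-thresholded (called). Lists on ce10 were not used. Per the deposited notes a control file entered the calls; control reads were not analysed here. The aligner, the peak caller and the IDR cutoff were not given in the sources used here. The signal of each peak is the authors' deposited value, used to rank and describe. The −log10 q is likewise as deposited by the authors. Fragments were 150 to 350 bp per the labels.

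Genes came from Ensembl release 115 and sequences from RefSeq, both on WBcel235, the assembly ce11 names. Of 9 genes, 9 matched by symbol, and 1 list gene, cdc-20, did not match. Overlap between lists meant 1 bp or more, taking the nearest summit. Members and lists were chosen with earlier results of these data known. Named beyond the members were up to 4 called genes per list by pooled signal, each called member's nearest other gene, and 3 genes nearest to pcn-1 in signal. Outside that rule, and chosen after values were seen, are 3 further called replication genes, the MCM genes, lin-37, lin-52, and genes beside a called list gene, an uncalled candidate or cki-1. No test was run. The assignment of summits to genes was tested on simulated peaks. Python 3.11.15, numpy 2.4.6, pandas 2.3.3 and matplotlib 3.10.9 were used.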

Additional observations from a re-analysis of the deposited data

How the results depend on the processing

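The same 4 genes were called with 1 kb upstream (5.41% of all genes), 5 kb (9.77%), peak overlap in place of summits (7.26%), RefSeq genes (6.66%), either replicate alone (4 and 4) and the 2282 strongest candidates (11.9%). Gene bodies alone left 1, cye-1, against 1.24% of all genes, and the 570 strongest called peaks left 2, efl-1 and pcn-1, against 3.57%. List genes called numbered 15 (6.70% of all genes), but 0 with gene bodies alone (1.24%), 9 by nearest 5' end (4.22%), 29 from the 2282 strongest candidates (11.9%), and 17 to 19 from a single replicate (6.51% and 6.73%). Genes with a candidate numbered 8, but 5 in the promoter window and 5 by nearest 5' end, and 8 without either replicate. The median strongest signal was 40.4, but 23.3 by peak overlap, where cki-1 enters. Called summits with an E2F-type word numbered 1, but 2 within 100 bp, and 1 from either replicate alone. No paired analysis was possible because the result comes from no test and there is 1 group. Read depth is unknown.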
